A study of Homo sapiens with 6 samples.

Results

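The translation initiation and elongation factors described here are the genes whose symbol begins with EIF and a digit, or with EEF1 or EEF2, and that have a probe set of their own on the Affymetrix HG-U133A array. Pseudogenes were left out, as was EEF1E1, which encodes a scaffold protein of the aminoacyl-tRNA synthetases. The rule uses names and no measured value. It found 102 of the 22283 probe sets on the array, and 50 of the 11963 genes that have a probe set of their own. Each gene was represented by its brightest probe set, by mean signal over the 6 arrays.

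The RNA came from HL60, an established human promyelocytic leukemia cell line. One culture condition was treatment for 5 days with 1 μM tretinoin (all-trans retinoic acid, a ligand of the retinoic acid receptors that is known to drive HL60 cells toward granulocytes), carried in dimethyl sulfoxide (DMSO) at a final concentration of 0.1%. The other was DMSO at 0.1% alone, also for 5 days. The data hold 3 arrays for tretinoin and 3 for DMSO. Each condition's pooled labeled product was hybridized to its 3 arrays in parallel, so all p-values measure the spread between hybridizations and not between cultures. In these bulk cultures, fewer cells that express a gene and less of its RNA per cell cannot be told apart.

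Protein synthesis starts when eIF2, loaded with GTP, brings the initiator tRNA to the small ribosomal subunit, which also binds eIF1, eIF1A, eIF5 and the large scaffold eIF3. The complex eIF4F binds the cap of the mRNA and brings it in, and eIF4E-binding proteins block that step until the kinase mTOR phosphorylates them. The elongation factor eEF1 then delivers each aminoacyl-tRNA, and eEF2 moves the ribosome along. HL60 cells are known to stop dividing as they become granulocytes, and growing cells are known for a high demand for this machinery.

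Signal is the linear MAS5 intensity, multiplied on each array to bring its mean to that of DMSO replicate 1. The mean before scaling was 91.3 to 132.7 on the tretinoin arrays and 121 to 152 on the DMSO arrays. Values under 20 were set to 20, and a probe set was tested where it was above 20 on at least 3 arrays. A gene was called where limma gave an adjusted p (Benjamini-Hochberg over 13374 probe sets) under 0.05 and a change of at least 1.5-fold. Of 8161 genes tested, 1103 were called higher in tretinoin (13.5%) and 1170 lower (14.3%). Arrays of a condition correlated at 0.957 to 0.975 across probe sets, and arrays of different conditions at 0.850 to 0.862, which describes genes and not replicates. The granule and transcription factor markers of promyelocytes were above 20 on all DMSO arrays for 7 of 7 genes and on all tretinoin arrays for 4 of 7, with a summed signal of 649 to 661 in tretinoin and 3571 to 4128 in DMSO. Markers of T cells (5 genes), B cells (5), erythroid cells (3) and epithelial cells or fibroblasts (6) summed to 69.8 to 195 in tretinoin and 62.7 to 214 in DMSO. On all tretinoin arrays 1 T cell, 1 B cell, 1 erythroid and 2 epithelial or fibroblast markers were above 20, and on all DMSO arrays 3 (CD3E, CD2 and CD8A), 2 (MS4A1 and PAX5), 1 (HBB) and 2 (KRT18 and COL1A1). The ratio of the 3′ to the 5′ control probe set of ACTB, a sign of RNA quality, was 1.14 to 1.17 in tretinoin and 1.38 to 1.42 in DMSO, and that of GAPDH was 1.15 to 1.19 in tretinoin and 1.06 to 1.17 in DMSO. The part of the marker levels and of these ratios in the results that follow was not tested.

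Among the translation factors, 9 genes fell in tretinoin and 1 rose. Of the 50 genes, 45 were tested, and the share called lower was 20%, against 14.3% of all genes tested. The share called higher was 2.22%, against 13.5% of all genes. The genes that fell were EIF4EBP1, EIF3J, EIF3B, EIF1AX, EIF2S2, EIF3M, EIF2S1, EIF5B and EIF3E, by 1.56-fold to 13.2-fold. The gene that rose was EIF1B, by 6.04-fold. The log2 fold change was below 0 in 33 of the 45 genes and above 0 in 12, with a median of -0.29, against -0.04 for all genes tested. Without tretinoin replicate 2, the array with the lowest mean before scaling, these medians were -0.23 for the factors and -0.10 for all genes. By adjusted p with no fold minimum, 13 factors were lower (16.9% of all genes were) and 5 were higher (15.7% of all genes). All 3 tretinoin arrays lay below all 3 DMSO arrays for 21 of the 45 factors, where 24.7% of all genes did so, and above them for 7, where 21.5% of all genes did so. The other 5 factors, EEF1A2, EIF5A2, EIF1AY, EEF1AKMT2 and EEF2KMT, were not above 20 on 3 arrays and were not tested. By its brightest probe set, no tested factor was above 20 in only 1 condition, so none passed the filter through its high group alone. A dimmer probe set of EIF4E and a dimmer one of EIF5B did so.

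**Figure D1:**
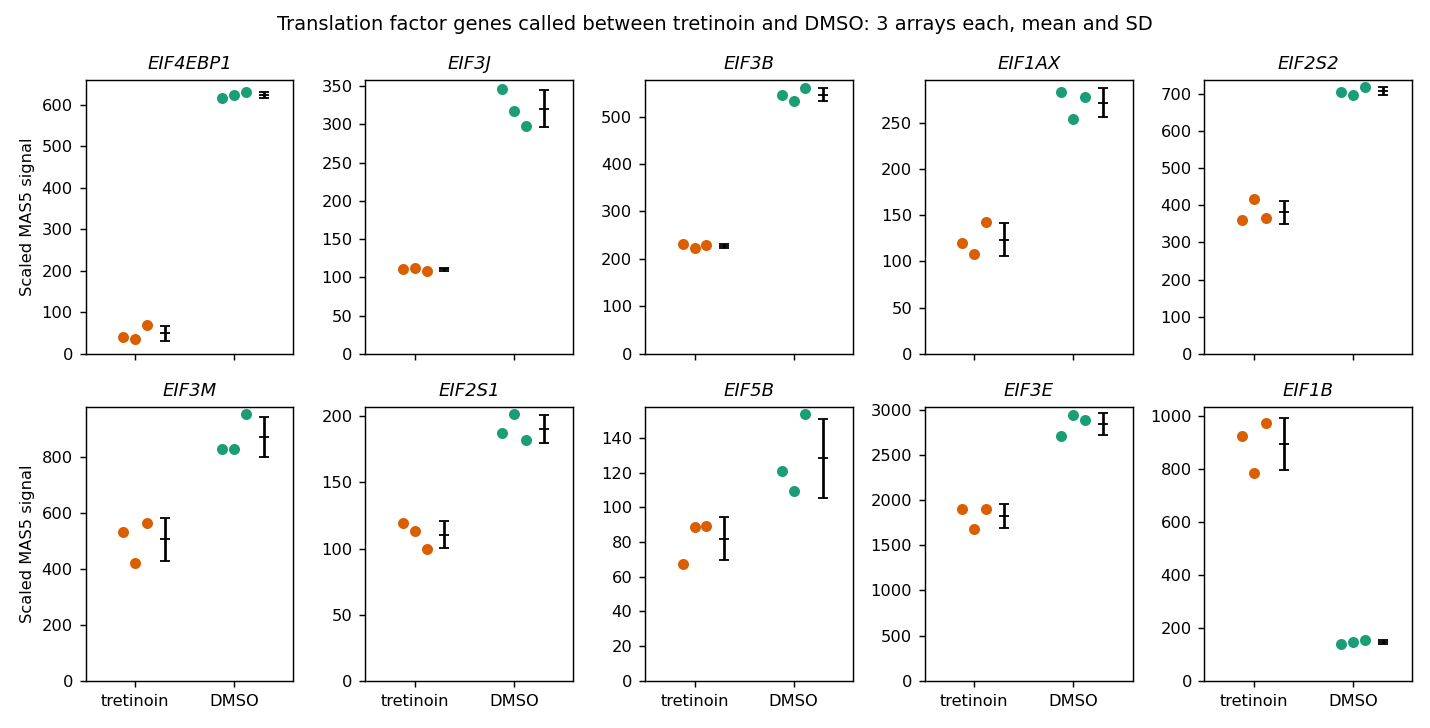
Scaled MAS5 signal (vertical axis, from 0, with a scale for each gene) of the 10 called translation factor genes on each of the 3 tretinoin arrays (orange, left) and the 3 DMSO arrays (green, right), with the mean and SD beside each set of points. In every panel the 3 tretinoin arrays are clear of the 3 DMSO arrays, with EIF1B the only gene whose tretinoin arrays are on top.

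Many mRNAs of the translation machinery, among them those of eEF1A, eEF2 and several initiation factors, are known as TOP mRNAs. They begin with a C followed by an unbroken run of pyrimidines, which puts their translation under the control of mTOR. The first 20 transcribed bases at the annotated start are shown for 6 factors with such a tract, to set its letters beside their values, and for 4 called factors without one. The sequences are from RefSeq (GRCh38.p14) and the examples were chosen after their values were seen. Capitals mark the tract, which was counted where the first base was C and at least 4 more C or T followed directly.
EEF1A1: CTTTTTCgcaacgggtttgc
EEF2: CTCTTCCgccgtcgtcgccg
EIF2S3: CTCTTTTggcaacatggcgg
EIF3D: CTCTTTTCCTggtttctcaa
EIF3F: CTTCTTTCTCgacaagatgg
EIF3M: CTTTTCCggtcggcgtggtc
EIF1B: gagaagccgcagcgccgcct
EIF3J: aactcctcgctagctctccc
EIF3B: atggctgggctgtagccgtc
EIF1AX: gccatttgctgccgccgagc

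On the plus strand these windows lie at chrX:24054956-24054975 for EIF2S3, chr11:7987337-7987356 for EIF3F, chr11:32583831-32583850 for EIF3M, chr3:40309707-40309726 for EIF1B, chr15:44537147-44537166 for EIF3J and chr7:2354827-2354846 for EIF3B. On the minus strand they lie at chr6:73521013-73521032 for EEF1A1, chr19:3985444-3985463 for EEF2, chr22:36529147-36529166 for EIF3D and chrX:20141819-20141838 for EIF1AX. A start window was at hand for 38 of the 50 factor genes. Of these, 9 held the tract at a start (the 6 above and EIF2D, EIF3K and EIF4B), or 23.7%, against 6.24% of protein-coding genes and 5.14% of all genes with a window. All 9 were tested, 1 of them was called lower (EIF3M) and none higher, and their log2 fold changes had a median of -0.27 and ran between -0.79 and 0.10. The 26 tested factors without the tract had a nearly equal median of -0.30 and a wider range, from -1.54 to 2.60, with 5 called lower and 1 higher. Of all genes tested, 14.3% were called lower and 13.5% higher. The medians are descriptions, and the difference between the sets was not tested.

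**Figure D2:**
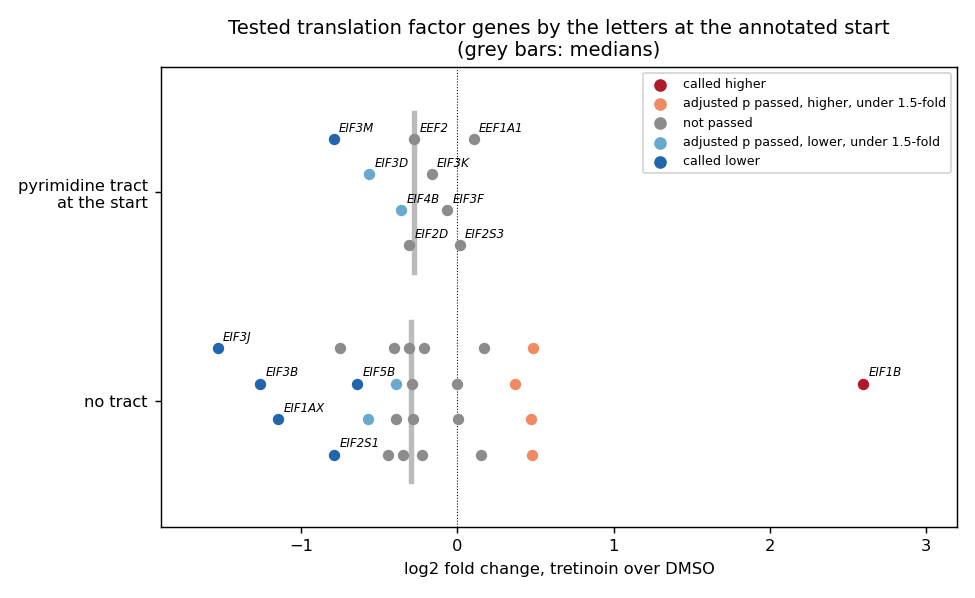
Log2 fold change, tretinoin over DMSO (horizontal axis), of the tested factor genes with a RefSeq start window, split by whether a start opens with the pyrimidine tract (9 genes, above) or not (26 genes, below). Each point is a gene, colored by its call, and grey bars are medians, which lie at -0.27 with the tract and -0.30 without it.

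A list of classical TOP genes took the elongation factors with their own probe set and the eIF3 subunits e, f and h. It held 7 genes, of which 6 were tested. Only EIF3E of these was called, as lower, and their median log2 fold change was -0.14. In the window from 250 bases before to 50 bases after the start, the palindrome CACGTG, a form of the E box that MYC proteins bind, occurred at 11 of the 38 genes (28.9%), against 10.9% of protein-coding genes and 8.77% of all genes with a window. Of the 10 of these that were tested, EIF1B was called higher and none lower. Of the 25 tested factors without it, 6 were called lower and none higher, where 14.3% of all genes tested were lower and 13.5% higher, and the difference between these sets was not tested. The called genes EIF4EBP1, EIF2S2 and EIF3E have no window here and are in none of these sets. These matches are letters in a window and not evidence of binding.

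The factor eIF2 carries the initiator tRNA and consists of the subunits alpha (EIF2S1), beta (EIF2S2) and gamma (EIF2S3). EIF2S2 had signals of 360.3, 417 and 367 on the tretinoin arrays, against 705, 698 and 720.2 on the DMSO arrays. The conditions do not overlap, and in limma the gene fell by 0.90 on the log2 scale (SE 0.12, adjusted p = 0.00166), which is 1.86-fold. EIF2S1, the subunit phosphorylated by the stress kinases, fell by 0.79 (SE 0.13, adjusted p = 0.00374), with 110.5 ± 10.1 in tretinoin and 190.5 ± 10.3 in DMSO (SD, n = 3 arrays each). The gamma subunit holds GTP and the tRNA, and its gene did not pass: EIF2S3 had 554 ± 19.5 in tretinoin and 548 ± 19.1 in DMSO, and its log2 fold change of 0.01 had a 95% confidence interval from -0.26 to 0.29. That interval does not reach the changes fitted for the other subunits. The probe sets of EIF2S1 were unequal, since 1 of 3 was called, and the others had log2 fold changes of -0.72 (adjusted p = 0.062) and -0.26 (adjusted p = 0.453).

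No gene of eIF2B, the exchange factor that reloads eIF2 with GTP, passed the test. Its 5 subunits had log2 fold changes from -0.75 to 0.17 with a median of -0.29. In EIF2B1 and EIF2B5 every tretinoin array was below every DMSO array, as in 24.7% of all genes. The same held for the dimmer probe set of EIF2B4, at -0.53 (adjusted p = 0.0582), while its brightest overlapped, at -0.22 (adjusted p = 0.377). The subunit at the low end, EIF2B3, had the widest spread, 94.8, 162 and 49.1 in tretinoin and 166, 134 and 161 in DMSO. Its adjusted p was 0.207 and became 0.0307 without tretinoin replicate 2, its highest tretinoin array, where its log2 fold change was -1.16. Without tretinoin replicate 3, its lowest, the log2 fold change was -0.30 (adjusted p = 0.459). The 3 kinases of eIF2 that are among the factors here did not pass either. The heme-regulated kinase EIF2AK1 had 377 ± 7.12 in tretinoin and 376 ± 10.7 in DMSO, the RNA-activated kinase EIF2AK2 had 53.2 ± 17.9 in tretinoin and 51.4 ± 29.6 in DMSO, and the endoplasmic reticulum kinase EIF2AK3 lay near the floor with 23.1 ± 4.65 in tretinoin and 31.4 ± 6.07 in DMSO. EIF2D, which can bring tRNA to the ribosome without GTP, had a log2 fold change of -0.31 (adjusted p = 0.115).

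Factors that choose the start codon went both ways. EIF1B, a close paralog of the start codon fidelity factor EIF1, had signals of 925, 783 and 971 on the tretinoin arrays and 140.1, 146 and 156 on the DMSO arrays. Every tretinoin array was more than 5 times the highest DMSO array, and EIF1B rose by 2.60 on the log2 scale (SE 0.14, adjusted p = 3.68e-05 by limma). It has a single probe set here. EIF1AX, which encodes eIF1A, the partner of eIF1 in scanning, had 120.1, 108 and 142 in tretinoin and 283.5, 254 and 277 in DMSO. It fell by 1.15 (SE 0.15, adjusted p = 0.00125), and all 4 of its probe sets were called lower, with log2 fold changes of -1.61 to -1.15. EIF5B, the GTPase that joins the ribosomal subunits, fell by 0.64 (SE 0.19, adjusted p = 0.0358) with 81.9 ± 12.5 in tretinoin and 128 ± 22.7 in DMSO. The call for EIF5B is weak: it was lost with any of 4 arrays left out. The difference was -0.51 without tretinoin replicate 1 (adjusted p = 0.107) or DMSO replicate 3 (adjusted p = 0.0975). It was -0.71 without tretinoin replicate 3 (adjusted p = 0.0607) and -0.68 without DMSO replicate 1 (adjusted p = 0.072), so there only the p was lost. By its name, the brightest probe set of EIF5B holds probes that may match other transcripts. The next brightest had a difference of -0.51 (adjusted p = 0.0233), under the fold minimum. Another was called lower at -0.72 (adjusted p = 0.0197). The remaining tested ones did not pass, at -0.64 (adjusted p = 0.0688) and -0.20 (adjusted p = 0.24). The latter was above 20 on the DMSO arrays alone.

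EIF1 and EIF5 are singled out after their values were seen, because their probe sets did not all give the call of the brightest one. For EIF1 the brightest probe set had 2692 ± 101 in tretinoin and 2698 ± 175 in DMSO, with a log2 fold change of -0.00 (95% confidence interval from -0.29 to 0.28). The other 3 tested probe sets of EIF1 fell by 0.64, 0.69 and 0.75 (adjusted p = 0.00867, 0.00611 and 0.00442). All 3 carry the suffix that Affymetrix gives to probe sets whose probes may match other transcripts, so whether EIF1 changed depends on the probe set. EIF5, which makes eIF2 hydrolyze its GTP at the start codon, was above DMSO in all 5 of its tested probe sets. Its brightest had 694 ± 39.9 in tretinoin and 498 ± 41.2 in DMSO and was higher by 0.48 (adjusted p = 0.0268), under the fold minimum, while 2 others were called higher at 0.77 and 0.86.

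The scaffold eIF3 is the group with the most subunits measured here. Of its 12 measured subunits, 4 fell, 2 more were lower by adjusted p but under 1.5-fold, and 6 did not pass, where 14.3% of all genes fell. All 12 log2 fold changes were below 0, with a median of -0.36, though that of EIF3F was -0.07 and that of EIF3L was -0.00 and above 0 under median scaling, under quantile normalization and without tretinoin replicate 2 or DMSO replicate 3. In 9 of the 12 the tretinoin arrays lay below all DMSO arrays, as in 24.7% of all genes. EIF3J, a loosely held subunit that sits in the decoding site, had 110.4, 113 and 108 in tretinoin, against 346.5, 317 and 298.5 in DMSO. The tretinoin arrays were within a few units of each other and far under the lowest DMSO array, and EIF3J fell by 1.54 (SE 0.12, adjusted p = 1.66e-04). Its other tested probe set fell by 1.38 (adjusted p = 0.00101).

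EIF3B, a core subunit that binds EIF3A, had 228 ± 4.15 in tretinoin and 546 ± 13.9 in DMSO and fell by 1.26 (SE 0.11, adjusted p = 2.69e-04). Its 3 probe sets were all called lower, at -1.26 to -1.48. The brightest and the next brightest carry the suffix for probes that may match other transcripts. The remaining one, without that suffix, had -1.48 (adjusted p = 4.89e-04). EIF3A itself had a log2 fold change of -0.30 (adjusted p = 0.125), so the core partners were not called together, although 1 of its other probe sets had -0.57 (adjusted p = 0.016). EIF3M, a subunit of the octamer that forms the body of eIF3, fell by 0.79 (SE 0.16, adjusted p = 0.00804) with 505 ± 75.4 in tretinoin and 870.2 ± 70.9 in DMSO. EIF3E, which contacts EIF3D and the mRNA-binding eIF4G, fell by 0.64 (SE 0.12, adjusted p = 0.00722) with 1826 ± 130 in tretinoin and 2845 ± 122 in DMSO. EIF3E stands just past the fold minimum, and without tretinoin replicate 2 its fall was 0.58 (adjusted p = 0.0179), under it. EIF3D, which can bind the cap of some mRNAs, stands just under, with a difference of -0.56 (adjusted p = 0.0119, 749 ± 49.7 in tretinoin and 1106 ± 51.8 in DMSO). EIF3I had -0.39 (adjusted p = 0.0437), and the log2 fold changes of EIF3G, EIF3H and EIF3K, which did not pass, were -0.32, -0.22 and -0.17.

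**Figure D3:**
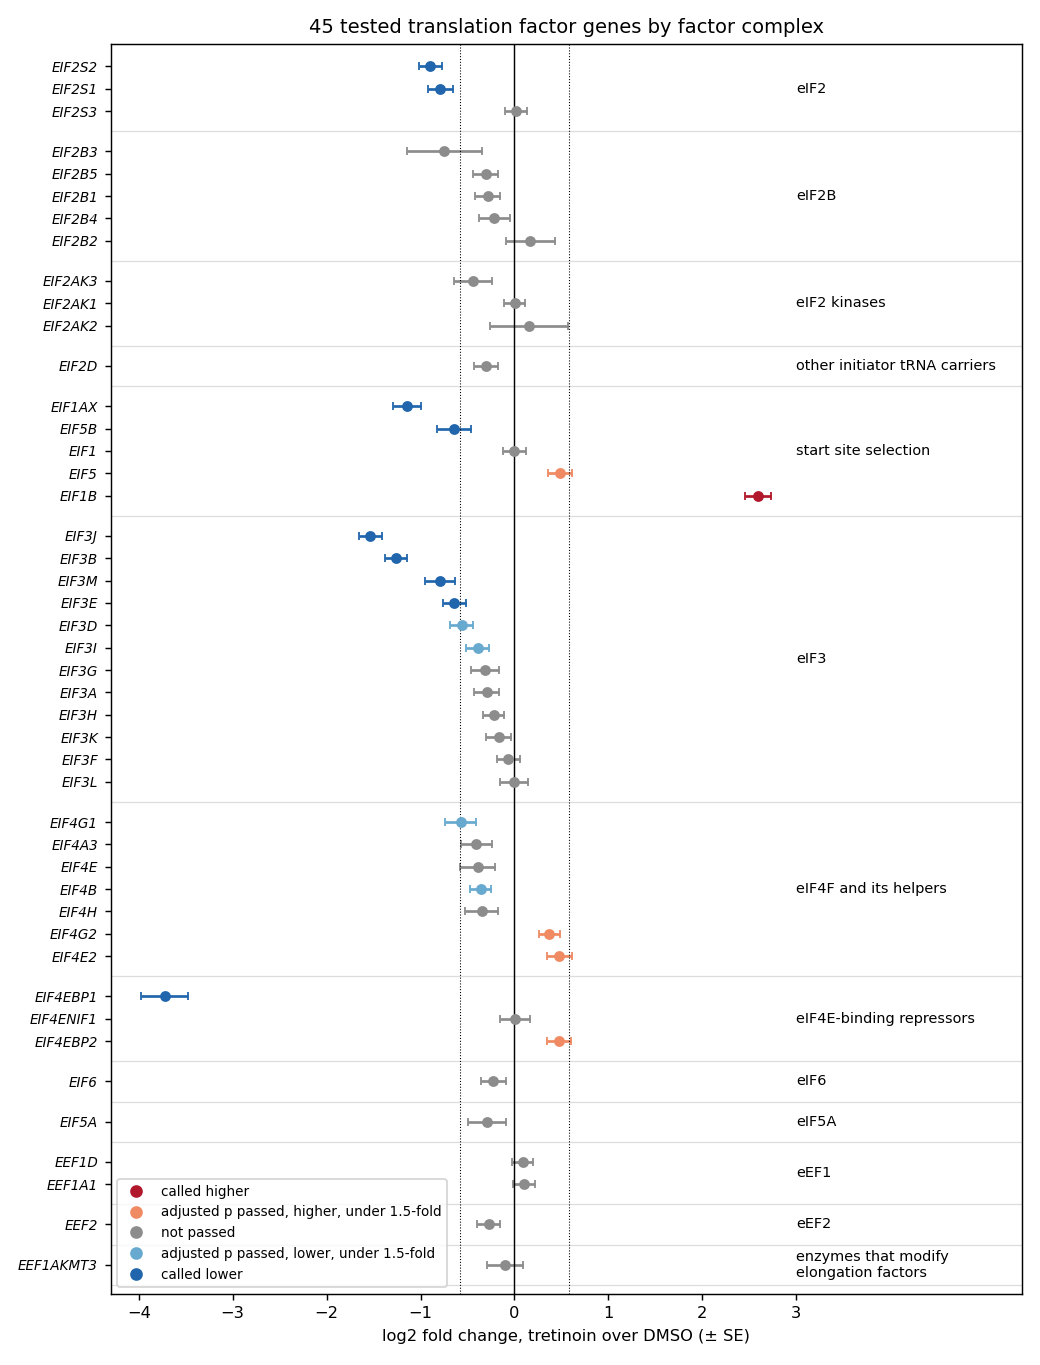
Log2 fold change, tretinoin over DMSO, with its standard error from limma (horizontal axis) for the 45 tested genes, grouped by factor complex; dotted lines mark 1.5-fold in each direction and colors mark the call. The 12 eIF3 subunits all lie at or left of 0 (EIF3L, at -0.00, lies right of it under median scaling and quantile normalization), the elongation factors EEF1A1, EEF1D and EEF2 lie between -0.27 and 0.10, and EIF4EBP1 (-3.73) and EIF1B (2.60) stand far from the rest.

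None of the 7 tested genes of eIF4F and its helpers was called, and those that passed by adjusted p went both ways. EIF4A1 and EIF4A2, which encode the helicase subunit of eIF4F, have no probe set annotated to them alone. They are not among the factors, so eIF4F is covered only in part. The cap-binding protein EIF4E had 164 ± 13.8 in tretinoin and 217 ± 45.2 in DMSO (log2 fold change -0.39, adjusted p = 0.163). Its other tested probe sets, dimmer ones, had -0.62 (adjusted p = 0.0563) and -0.54 (adjusted p = 0.0313). In the first the tretinoin arrays lay below all DMSO arrays, as in 24.7% of all genes. The second was above 20 on the DMSO arrays alone and passed the filter only through them. Its tretinoin values were all set to 20, so the filter and the floor fixed its lack of overlap, and its p is no support for a fall. The scaffold EIF4G1 had -0.57 (adjusted p = 0.0352, 156 ± 25.9 in tretinoin and 232 ± 24.4 in DMSO), and EIF4B, which stimulates the helicase, had -0.36 (adjusted p = 0.0486). In contrast, EIF4G2, a relative of the scaffold that does not bind EIF4E, had 0.37 (adjusted p = 0.046, 1299 ± 57.2 in tretinoin and 1003 ± 4.9 in DMSO). The cap-binding relative EIF4E2, known as a repressor, had 0.48 (adjusted p = 0.0333). These 4 differences, all under 1.5-fold, are those of the brightest probe sets. That of EIF4G1 was called without tretinoin replicate 3 or DMSO replicate 1. It did not pass with any other array left out (adjusted p = 0.0826 to 0.105). The other probe set of EIF4G1 had -0.31 (adjusted p = 0.262). The other probe sets of EIF4B had -0.35 and -0.42 (adjusted p = 0.0835 and 0.062). Those of EIF4E2 had 0.55 (adjusted p = 0.0466) and -0.19 (adjusted p = 0.693). EIF4A3, the helicase of the exon junction complex, and EIF4H, another helicase helper, did not pass, with -0.41 and -0.35.

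The largest change among the factors was in a repressor. EIF4EBP1, the best known of the eIF4E-binding proteins and an mTOR substrate, had signals of 40.8, 36.55 and 70.4 on the tretinoin arrays, against 617, 624 and 630.3 on the DMSO arrays. The DMSO arrays were nearly equal, while tretinoin replicate 3 was well above the other tretinoin arrays. EIF4EBP1 fell by 3.73 on the log2 scale (SE 0.25, adjusted p = 9.5e-05 by limma), or 13.2-fold. The study picked this gene for its assay from these same arrays, so its direction is not independent evidence. Its relative EIF4EBP2 had the opposite sign, with 154 ± 15.0 in tretinoin and 110.5 ± 6.08 in DMSO, a difference of 0.47 (adjusted p = 0.0318) that is under the fold minimum. EIF4ENIF1, which carries EIF4E into the nucleus, had a log2 fold change of 0.00 (adjusted p = 0.988).

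The 3 tested elongation factors gave no call. EEF1B2 and EEF1G, which encode other subunits of eEF1, have no probe set annotated to them alone and are not among the factors. The small positive differences of EEF1A1 and EEF1D turned negative without scaling between arrays. That of EEF1D also did so under quantile normalization and as the mean of its probe sets. EEF1A1, which delivers aminoacyl-tRNA, had 10276 ± 354 in tretinoin and 9563 ± 368 in DMSO. Its log2 fold change of 0.10 had a 95% confidence interval from -0.17 to 0.38 (adjusted p = 0.559), and its 4 probe sets, which all carry the suffix for probes that may match other transcripts, lay between -0.02 and 0.10. EEF1D, a subunit of the exchange factor that recharges EEF1A1, had 1325 ± 14.9 in tretinoin and 1248 ± 21.8 in DMSO (log2 fold change 0.09, adjusted p = 0.619), and its other tested probe sets had 0.10 (adjusted p = 0.575) and -0.36 (adjusted p = 0.144). EEF2, the translocase, had 3426 ± 257 in tretinoin and 4141 ± 211 in DMSO (-0.27, adjusted p = 0.146), and its second probe set also gave -0.27. The EEF2 arrays of the conditions did not overlap, but the difference did not pass. The 3 tested elongation factors had a median log2 fold change of 0.09, which is the value of EEF1D. The 40 tested initiation factors and regulators had -0.31. Of these 40, 1 was called higher and 9 lower, where 13.5% of all genes tested were higher and 14.3% lower. The difference between the elongation and the initiation set was not tested. EIF5A, which eases peptide bond formation at prolines, had -0.29 (adjusted p = 0.322). Its other probe sets had -0.44 (adjusted p = 0.0518) and -0.25 (adjusted p = 0.22). EIF6, which keeps the ribosomal subunits apart, had -0.23 (adjusted p = 0.251). EEF1AKMT3, a methyltransferase of eEF1A, had -0.10 (adjusted p = 0.752).

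Over all 102 probe sets, 88 were tested, 20 were called lower and 3 higher, where 13.8% of all probe sets tested were lower and 13.6% higher. Several tested probe sets were present for 21 genes. In 18 of these every tested probe set was on the same side of 0, in 5 (EIF1, EIF2S1, EIF3M, EIF5 and EIF5B) some were called and others not, and in none were probe sets called in both directions. Probe sets of a gene share their RNA and array and are not replicates.

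**Figure D4:**
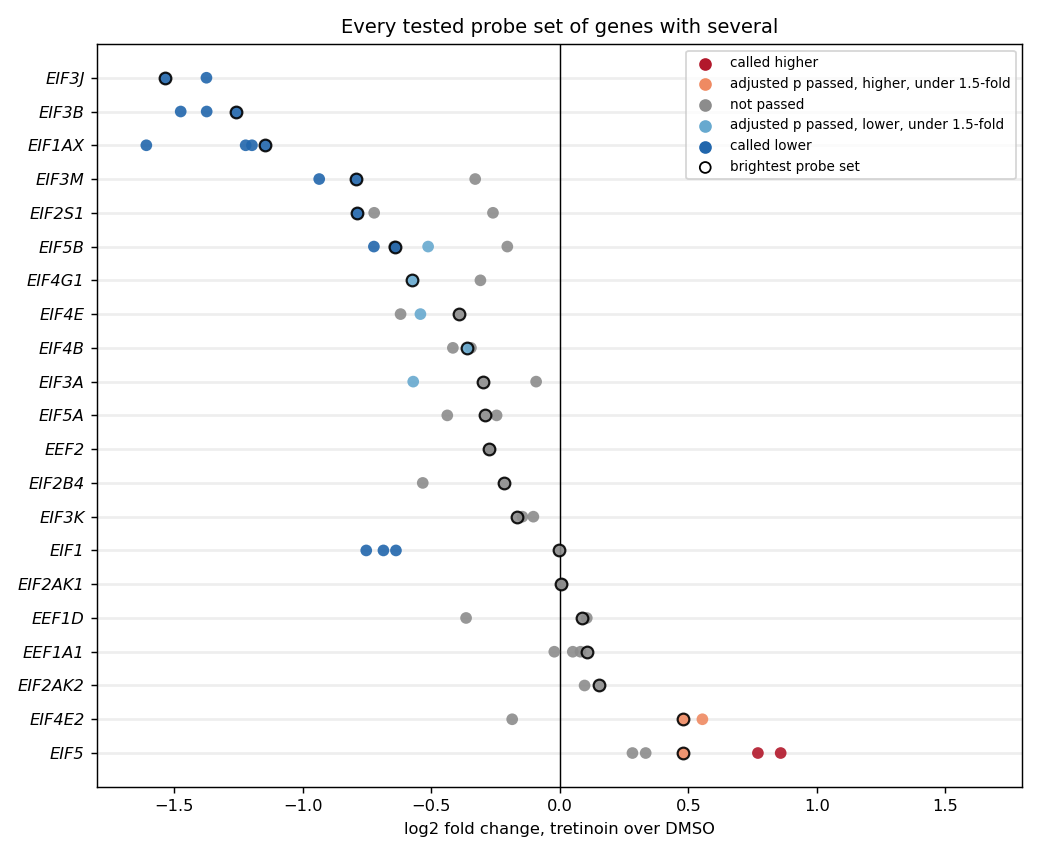
Log2 fold change, tretinoin over DMSO (horizontal axis), of each tested probe set of the 21 factor genes with several, colored by its call, with the brightest probe set of each gene ringed. The 4 probe sets of EIF1AX and the 3 of EIF3B lie together below -1, while for EIF1 the brightest is at 0 and the other 3 lie between -0.75 and -0.64.

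Other genes of translation outside the symbol rule were taken from a list of 38, of which 29 had a probe set of their own and 25 were tested. Of these, 9 fell, 1 rose and 15 were not called, with a median log2 fold change of -0.45, where 14.3% of all genes tested fell and 13.5% rose, and their median was -0.04. The 3 largest falls were in ABCE1, which splits ribosomes after termination (98.9 ± 4.11 in tretinoin and 238 ± 9.96 in DMSO, -1.27, adjusted p = 3.06e-04), in DENR, which acts in recycling and reinitiation (127 ± 4.25 in tretinoin and 275 ± 19.1 in DMSO, -1.11, adjusted p = 6.02e-04), and in MTIF2, the mitochondrial initiation factor (119.8 ± 13.4 in tretinoin and 233 ± 28.5 in DMSO, -0.96, adjusted p = 0.00316). The rise was in MKNK1, a kinase of eIF4E, with 210.5 ± 13.3 in tretinoin and 123 ± 5.75 in DMSO (0.77, adjusted p = 0.00307). All 4 genes of recycling and reinitiation on the list were lower by adjusted p, as were 16.9% of all genes, and 2 of them passed the fold minimum.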

How the data were processed

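The deposited values were linear MAS5 signal intensities of HG-U133A arrays, which the authors had not yet scaled between arrays. The mean of each array was set equal to that of DMSO replicate 1 (factors 0.820 to 1.36), and a floor of 20 was set. The log2 values then entered limma 3.58.1 in R 4.3.3, with lmFit, eBayes and a mean per condition. Of 22283 probe sets, 19071 had 1 gene symbol, 1043 several and 2169 none in the platform annotation, and only those with 1 symbol were named. The number of arrays limits the precision. The fit was tested on simulated data.

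Members and lists were chosen with earlier results of these data known. Every called factor was named, with its value on each array for the largest rise and fall of each complex, and others were given by mean, fold or range. Alternatives were other scalings, floors, filters, variances, fold minimums, probe sets per gene, a replicate block and each array left out. Tables and plots were made in Python 3.11.15 with pandas 2.3.3, numpy 2.4.6, matplotlib 3.10.9 and scipy 1.17.1.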

Additional observations from a re-analysis of the deposited data

How the results depend on the processing

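Of the 10 called factors, 8 kept their call and direction in all alternatives that keep the fold minimum of 1.5. The exceptions were EIF5B, lost in 9 alternatives, and EIF3E, lost under quantile normalization and without tretinoin replicate 2. A fold minimum of 2 left 4 factors called lower, and no fold minimum gave 5 called higher. No call turned its direction. The median log2 fold change of the factors was -0.50 without scaling, where that of all genes was -0.22 in place of -0.04, and between -0.31 and -0.23 with each array left out (-0.23 without tretinoin replicate 2, where that of all genes was -0.10). Over the array, 1824 probe sets were called higher and 1850 lower. These counts were 1012 and 860 at a fold minimum of 2, and 1142 and 2312 without scaling, where 33.1% of the calls were higher in place of 49.6%. EIF3D, EIF4G1 and EIF2B3 were called lower in some alternatives. Values of 10 uncalled factors near 0 changed sign in at least 1 alternative. With the replicate number as a block, the same 10 factors were called, with 1 higher and 9 lower, and over the array 1743 probe sets were higher and 1758 lower. Same-numbered arrays deviated together with correlations of only -0.03 to 0.07, so the numbers do not pair the arrays. Signal near the floor of 20 limits EIF2AK3, and factors under it were not tested.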

Other observations

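A further 16 probe sets match a translation factor together with at least 1 other gene and were not named. All 16 were tested, 4 were called lower in tretinoin and none higher, where 13.8% of all probe sets tested were lower and 13.6% higher, and their log2 fold changes had a median of -0.26 and ran between -1.69 and 0.28. Among the other genes of translation, the called enzymes of diphthamide synthesis, which modify eEF2, were DPH2 (48.2 ± 4.59 in tretinoin and 74.5 ± 11.6 in DMSO) and DPH5 (214 ± 27.2 in tretinoin and 329 ± 43.0 in DMSO), each lower by 1.54-fold. TUFM, the mitochondrial elongation factor, was lower by 1.91-fold (526.0 ± 30.4 in tretinoin and 1002 ± 7.67 in DMSO). These were chosen after their values were seen.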
